A study of Mus musculus with 5 samples.

Results

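The proteasome genes of mouse Langerhans cells were described across 2 wild type libraries and 3 libraries from mice with a conditional knockout of Suz12. Members were the protein-coding genes whose symbol starts with Psma, Psmb, Psmc, Psmd, Psme or Psmf followed by a digit, which gave 46 of the 27179 genes in the table. Of these, 44 encode parts, assembly factors or regulators of the proteasome: 16 genes of the 20S core, 3 of the immunoproteasome, 20 of the 19S cap and its assembly, and 5 activators or inhibitors. The other 2, Psmc3ip and Psme3ip1, matched by name and are not part of the proteasome. The pattern chose genes by symbol and not by value. Langerhans cells are antigen-presenting phagocytes that reside in the epidermis. The donors were C57BL/6 mice 1 week old, the tissue was skin, and 5000 purified cells went into each library. The genotype was wild type (2 libraries) or Suz12 cKO (3 libraries), each given as biological replicates. The Suz12 protein belongs to the core of Polycomb repressive complex 2, a histone H3 methyltransferase. The sources used here give neither the Cre line that deletes Suz12 nor the sorting gate.

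The proteasome is the main protease of the cytosol and nucleus. Its 20S core is a barrel of stacked rings, with structural alpha subunits on the outside and beta subunits inside, of which Psmb5, Psmb6 and Psmb7 carry the active sites. The 19S cap binds ubiquitin-tagged proteins, removes the tag and unfolds the chain with a ring of ATPases. In immune cells and under interferon gamma, Psmb8, Psmb9 and Psmb10 take the places of Psmb5, Psmb6 and Psmb7 to form the immunoproteasome, and the PA28 activator (Psme1 with Psme2) can cap the core. The peptides released supply MHC class I presentation.

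Total counts per library ranged from 12090062 to 25725900. Suz12 had 88 and 39 counts (wild type) against 0, 0 and 7 counts (cKO), so each cKO value was under the lower wild type value. Counts are per gene and do not show which exons they came from. One label field names alveolar macrophages as the source of every library, whereas the other fields name Langerhans cells of skin. All 12 genes listed for Langerhans cell identity were detected in each library. They summed to between 100700 and 122500 CPM (the count scaled with TMM factors and expressed per 1000000 counts). Most of each sum came from H2-Aa (18150 to 25100 CPM), H2-Ab1 (33450 to 39970 CPM) and Cd74 (32490 to 46980 CPM). On the same list, Cd207 ranged from 6639 CPM in cKO replicate 2 to 14600 CPM in cKO replicate 1. The 8 alveolar macrophage genes summed to 697 and 216 CPM (wild type) against 250.2, 164 and 374 CPM (cKO). Of these 8, Siglecf, Car4, Chil3 and Fabp1 had no count in any library, whereas Ear2 (63.8 to 466 CPM), Krt79 (91.3 to 177 CPM) and Ear1 (1.88 to 9.31 CPM) were present in every library and Marco had 864 counts in wild type replicate 1, 2 in wild type replicate 2 and 0 in cKO. Genes listed as markers of other skin cells were present at lower levels. The 14 keratinocyte genes summed to 270.0 and 603 CPM (wild type) against 593, 982 and 853 CPM (cKO). Of the 11 tested, 10 lay higher in cKO, 4 of them with separate groups. The 9 dermal macrophage genes summed to 1242 and 874 CPM against 559, 867 and 810.2 CPM, without overlap. In these sums Adgre1 alone held 292 to 469 CPM, and which cells it came from was not tested. Of the 7 tested, 6 lay lower in cKO (median log2 fold change -0.55), 3 of them with separate groups. The 10 T cell genes summed to 761 and 533 CPM against 1015, 486 and 330.4 CPM. Of the 8 tested, 5 lay lower, 1 of them with separate groups. The 7 melanocyte genes summed to 39.6 and 428.6 CPM against 49.9, 33.1 and 145 CPM, and all 5 tested lay lower, each with overlapping groups. Over all tested genes, 8.87% had separate groups with cKO above and 10.2% with cKO below. These cells carry proteasomes too, and their part in the values below was not tested. Replicate 2 of cKO stood apart by gene length, with values given further on. In such bulk samples, fewer cells of a type and less RNA per cell cannot be told apart.

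Genes of the 20S core were the most abundant class per unit length. Levels of different genes are compared as CPM per kilobase, the CPM divided by the gene length that stands beside the counts. Among the 8 alpha genes, Psma7 had the highest mean level, 610.5 CPM per kilobase, and lay at 769 and 677 (wild type) against 609, 574 and 424 (cKO). For Psma7 no cKO library reached the lower wild type value, with a log2 fold change (cKO minus wild type) of -0.43 and a standard error of 0.29. Psma1, an alpha subunit whose gene lies on chromosome 7 (114264550 to 114276116, mm10), lay the other way. It had 334 and 442 CPM (wild type) against 724, 557 and 617 CPM (cKO). The means were 388 ± 76.7 CPM (SD, n = 2) and 633 ± 84.9 CPM (SD, n = 3), and each cKO value exceeded the higher wild type value. On the log2 scale the difference was 0.70 (standard error 0.29), which is 1.63-fold. It had the smallest p of any member, 0.0487 before adjustment, and did not pass over all genes (edgeR adjusted p = 0.968).

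The other alpha subunits overlapped between genotypes or differed little. Psma2 ranged from 395 to 614 CPM, Psma4 from 207 to 432 CPM and Psma6 from 226 to 570.1 CPM, each with overlapping groups. Psma3 and Psma5 were the scarcest of the alpha subunits common to all cells, with mean levels of 133 and 107 CPM per kilobase. For Psma5 the groups did not overlap: 133 and 162 CPM in wild type against 103, 123 and 128 CPM in cKO, with a log2 fold change of -0.32 (standard error 0.35). Psma8, the alpha subunit of male germ cells, had 496 and 217 counts (wild type) against 142, 743 and 0 counts (cKO). It is closely related in sequence to Psma7, and the sources used here do not give how reads matching both genes were handled, so its counts are uncertain. The same holds for Psma5, Psmb5, Psmb6 and Psmb7, of which RefSeq names pseudogene copies.

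Among beta genes, Psmb2 led the whole family. Its mean level was 919 CPM per kilobase, with 776 and 970 CPM (wild type) against 899, 518 and 728 CPM (cKO). The libraries of both genotypes were interleaved. Psmb1, Psmb3 and Psmb6 followed at mean levels of 526 to 577 CPM per kilobase, and Psmb5, Psmb4 and Psmb7 at 163 to 225. For Psmb1 the wild type libraries held 617 and 789 CPM and the cKO libraries 558, 381.5 and 549 CPM, so the groups did not overlap (log2 fold change -0.50, standard error 0.30). Of the 7 tested beta genes outside the immunoproteasome, Psmb4 was the only one with a positive change. It lay at 149 and 207 CPM (wild type) against 226, 210.1 and 253 CPM (cKO) (log2 fold change 0.37, standard error 0.32), and the groups were again separate. Psmb11, the beta subunit of the thymic cortex, had no count in any library, which allows up to 0.106 to 0.258 CPM, the value of 3 counts in the deepest library and in the least deep. That limit covers counting error only, since amplified reads are not independent molecules.

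**Figure D1:**
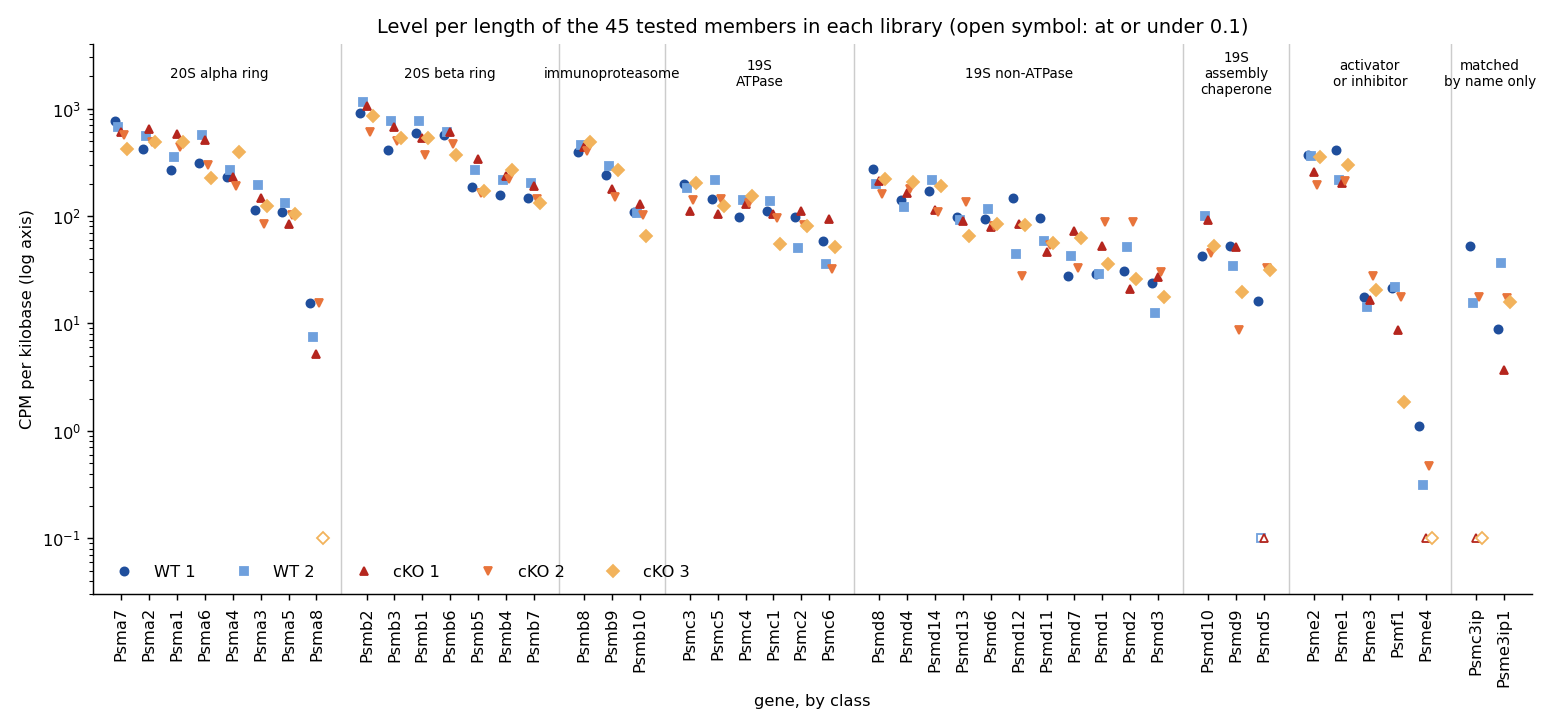
Level of each of the 45 tested members in each library, as CPM per kilobase on a log axis, with genes grouped by class and ordered by mean level. The 20S genes other than Psma8 sit above the 19S genes on the whole, Psme1 and Psme2 sit far above the other activators, and 4 genes (Psma8, Psmd5, Psme4, Psmc3ip) fall to the bottom of the axis in at least 1 library.

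The catalytic subunits that the immunoproteasome exchanges were all well expressed. Psmb5, the chymotrypsin-like subunit, lay at 161 and 233 CPM (wild type) against 297, 143 and 148 CPM (cKO). Its highest value was in cKO replicate 1 and its lowest in cKO replicate 2. Psmb6, the caspase-like subunit, lay at 594 and 629 CPM against 625.5, 491 and 386 CPM, and Psmb7, the trypsin-like subunit, at 142 and 198 CPM against 185, 138 and 128 CPM. For each of the 3 genes the groups overlapped, with log2 fold changes of -0.01 (standard error 0.44), -0.29 (0.30) and -0.18 (0.36).

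Psmb8 had the smallest ratio between its highest and lowest library of all tested members. It lay at 485 and 563 CPM (wild type) against 538, 497 and 597 CPM (cKO), a ratio of 1.23. The log2 fold change was 0.05, with a 95% interval from -0.58 to 0.69. Psmb9 lay at 196 and 237 CPM (wild type) against 144, 122 and 217 CPM (cKO). Replicates 1 and 2 of cKO were under the wild type range and replicate 3 within it, and the log2 fold change was -0.42 (95% interval -1.31 to 0.47). Psmb10 lay at 140 and 134 CPM (wild type) against 163, 130 and 82.5 CPM (cKO), with cKO libraries on both sides of the wild type (log2 fold change -0.13, interval -1.11 to 0.84). None of the 3 immunoproteasome genes passed the test (edgeR adjusted p = 0.999 for each).

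Psmb8 and Psmb9 lie next to the peptide transporter genes in the MHC region of chromosome 17, Psmb9 at 34182030 to 34187330 and Psmb8 at 34198195 to 34201454 (GRCm38, the assembly of mm10). Psmb9 runs away from Tap1, and 225 bases separate the ends of the 2 genes, so that the stretch upstream of Psmb9 is also the stretch upstream of Tap1. Tap1, which encodes a chain of the transporter that carries proteasome products into the endoplasmic reticulum, had 16.1 and 18.6 CPM (wild type) against 53.8, 106.5 and 29.4 CPM (cKO). Every cKO value of Tap1 exceeded the higher wild type value (log2 fold change 1.86, standard error 0.78, unadjusted p = 0.0489, edgeR adjusted p = 0.968), whereas Psmb9 lay lower in 2 of the 3. The exons annotated for the pair share 212 bases on opposite strands. The sources used here do not give whether the counting used strand, so reads from that stretch cannot be assigned to one gene.

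The 250 bases before the annotated start are shown for the 3 immunoproteasome genes and for Psmb5, the constitutive partner of Psmb8, because these genes are set against each other below. Sequences are from RefSeq on GRCm38.p6, where 39 of the 46 members had a window. Capitals mark matches on either strand to the interferon-stimulated response element (GAAA, any 2 bases, GAAA), the gamma-activated sequence (TTCNNNGAA), the antioxidant response element bound by the Nrf family (TGACNNNGC) or the CCAAT box.
Psmb8, upstream window chr17:34197945-34198194 (+ strand): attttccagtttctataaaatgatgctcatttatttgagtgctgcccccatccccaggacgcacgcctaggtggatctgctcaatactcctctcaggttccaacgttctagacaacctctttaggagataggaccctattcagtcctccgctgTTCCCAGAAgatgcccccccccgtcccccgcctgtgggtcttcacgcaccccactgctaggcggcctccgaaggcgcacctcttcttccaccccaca
Psmb9, upstream window chr17:34187331-34187580 (- strand): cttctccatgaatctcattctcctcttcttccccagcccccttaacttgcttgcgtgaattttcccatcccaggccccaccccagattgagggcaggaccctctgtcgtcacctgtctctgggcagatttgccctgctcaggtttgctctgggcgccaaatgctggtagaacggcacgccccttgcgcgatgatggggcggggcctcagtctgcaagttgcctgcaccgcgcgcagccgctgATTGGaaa
Psmb10, upstream window chr8:105938393-105938642 (- strand): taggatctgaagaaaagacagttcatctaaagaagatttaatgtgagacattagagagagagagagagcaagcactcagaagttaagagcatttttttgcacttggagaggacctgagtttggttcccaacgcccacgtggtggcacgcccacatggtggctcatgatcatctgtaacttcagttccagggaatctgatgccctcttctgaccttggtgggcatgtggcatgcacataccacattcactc
Psmb5, upstream window chr14:54617996-54618245 (- strand): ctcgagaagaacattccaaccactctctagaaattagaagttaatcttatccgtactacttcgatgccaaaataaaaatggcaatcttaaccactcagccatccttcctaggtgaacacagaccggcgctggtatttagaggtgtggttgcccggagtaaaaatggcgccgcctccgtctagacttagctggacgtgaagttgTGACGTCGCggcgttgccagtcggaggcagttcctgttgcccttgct
The Psmb8 window held a gamma-activated sequence match at positions -97 to -89 from the start, the Psmb9 window a CCAAT box at -8 to -4 and the Psmb5 window an antioxidant response element at -47 to -39. The Psmb10 window held none of the 4. Of the 39 member windows, 1 held the gamma-activated sequence, against 7.18% of all 27025 windows, and 3 held the interferon-stimulated response element (Psmb3, Psmd4 and Psmd9), against 3.04%. The antioxidant response element was in 5 (Psmb5, Psmb6, Psmc6, Psmd12 and Psmd9), or 12.8%, against 10.1% of all windows. The CCAAT box was in 15, or 38.5%, against 34.5%. Over the 7594 windows of tested genes, the antioxidant response element was in 12.4% and the CCAAT box in 37.7%, close to the members' shares. The gamma-activated sequence was in 5.9% of those windows and the interferon-stimulated response element in 2.75%. A match describes letters only, and its absence says only that these letters are not in this window. Motifs could overlap one another.

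Per unit length, Psmb8 exceeded the subunit it replaces in every library, and Psmb9 and Psmb10 lay below theirs in every library. The ratio of Psmb8 to Psmb5 was 2.15 and 1.72 (wild type) against 1.29, 2.48 and 2.87 (cKO). The lowest and the highest of these 5 ratios were both from cKO. The ratio of Psmb9 to Psmb6 was 0.424 and 0.484 (wild type) against 0.296, 0.321 and 0.724 (cKO), and that of Psmb10 to Psmb7 was 0.750 and 0.517 against 0.672, 0.715 and 0.492. These ratios are taken within a library and do not depend on its scaling. The differences of the mean log2 ratios, cKO minus wild type, were 0.12 for Psmb8 to Psmb5 (95% interval between libraries -1.38 to 1.63), -0.15 for Psmb9 to Psmb6 (-1.85 to 1.56) and -0.01 for Psmb10 to Psmb7 (-0.94 to 0.93). Each of these intervals included 0. The two-sided exact permutation p was 0.8, 1.0 and 0.8, each 1.0 when adjusted over the 3 ratios. With 3 libraries against 2 this test cannot go below 0.2, so it could not have reached 0.05.

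**Figure D2:**
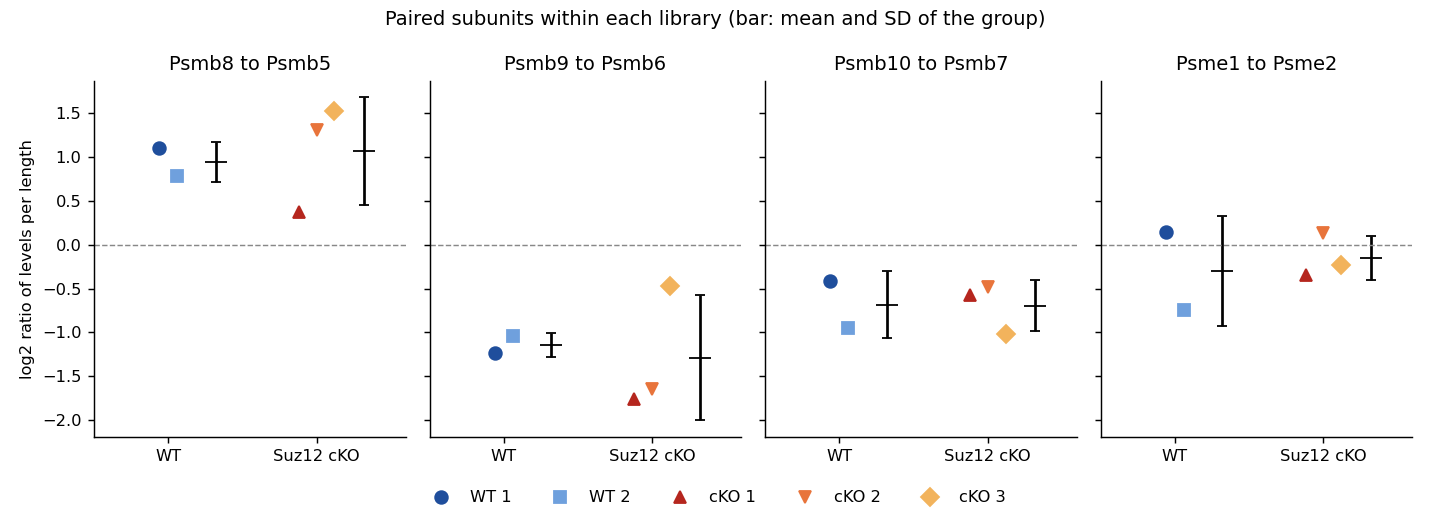
Log2 ratio of the levels per length of paired genes within each library, with the mean and SD of each genotype (2 wild type and 3 cKO libraries) beside the points. Psmb8 to Psmb5 is above 0 in all 5 libraries, Psmb9 to Psmb6 and Psmb10 to Psmb7 are below 0 in all 5, and the genotypes overlap for each pair.

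The genes of the 19S cap lay at lower levels per length than the 20S genes, with a median of 81.1 CPM per kilobase over 20 genes against 385 over the 15 tested 20S genes. The base of the cap holds 6 ATPases. Psmc3 had the highest level of them (mean 168 CPM per kilobase) and Psmc6 the lowest (54.5). Psmc1 lay at 168 and 208 CPM (wild type) against 157, 143 and 83.3 CPM (cKO), under the wild type range in each (log2 fold change -0.56, standard error 0.40). Psmc5 lay at 183 and 275 CPM against 133, 184 and 157 CPM, where 1 cKO library overlapped the lower wild type library (log2 fold change -0.53, standard error 0.35). Psmc2, Psmc4 and Psmc6 had positive changes of 0.20 to 0.34, with overlapping groups.

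The other subunits of the cap include its ubiquitin receptor Psmd4, the deubiquitinase Psmd14 and the scaffold proteins Psmd1 and Psmd2. Psmd8 had the highest mean level, 214 CPM per kilobase, and Psmd3 the lowest, 22.2. Psmd1 lay at 94.3 and 94.0 CPM (wild type) against 173, 288 and 116 CPM (cKO). All cKO libraries lay higher, with cKO replicate 2 highest (log2 fold change 1.03, standard error 0.47, 95% interval -0.09 to 2.15, unadjusted p = 0.066). Psmd1 overlaps Htr2b on the opposite strand and a readthrough model on its own strand. Without cKO replicate 2 its log2 fold change was 0.62. Psmd2, the other scaffold, was highest in the same library: 94.9 and 157 CPM in wild type against 63.7, 266 and 79.2 CPM in cKO. The groups of Psmd2 overlapped (log2 fold change 0.11, standard error 0.69).

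Psmd4 lay at 177 and 151 CPM (wild type) against 206, 223 and 257 CPM (cKO). Its groups were separate, with cKO higher (log2 fold change 0.48, standard error 0.32). Psmd14 lay at 262 and 332 CPM against 174, 168 and 291 CPM, with 1 cKO library inside the wild type range (log2 fold change -0.49, standard error 0.36). Psmd6 and Psmd11 were lower in all 3 cKO libraries. Psmd6 lay at 121 and 150.0 CPM against 103, 105 and 110.2 CPM, and Psmd11 at 168 and 103 CPM against 80.4, 94.5 and 98.6 CPM. Their log2 fold changes were -0.35 and -0.57, with standard errors of 0.35 and 0.40, and that of Psmd11 was -0.17 without wild type replicate 1. Psmd7 had a change of 0.69 (standard error 0.54) and Psmd3 one of 0.47 (0.63), both with overlapping groups, and that of Psmd3 was 0.09 without wild type replicate 2. Psmd12 had the widest spread of these subunits, from 47.5 CPM in cKO replicate 2 to 255 CPM in wild type replicate 1.

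Factors that assemble the cap were less even. Psmd5, a chaperone of the ATPase ring, had 623 and 0 counts (wild type) against 2, 1906 and 749 counts (cKO). It was thus at 33.0 CPM in wild type replicate 1, at 67.5 and 64.3 CPM in cKO replicates 2 and 3, and under the floor of 3 counts in the other libraries. Psmd9 lay at 138 and 88.8 CPM against 132, 22.5 and 51.2 CPM. Psmd10, also called gankyrin, lay at 61.4 and 144 CPM against 135, 66.6 and 77.2 CPM. Neither separated the genotypes.

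The activators were split between abundant PA28 and scarce other caps. Psme1 lay at 400.4 and 213 CPM (wild type) against 198, 208 and 292 CPM (cKO), and Psme2 at 363 and 356 CPM against 251, 189 and 343.5 CPM. The groups of Psme2 were separate and those of Psme1 overlapped, with log2 fold changes of -0.46 (standard error 0.34) and -0.40 (0.38). The pair lies on chromosome 14, with 5912 bases between the genes, and Psme1 shares exon sequence with Emc9 on the opposite strand. Their products form 1 mixed ring. The ratio of Psme1 to Psme2 per length was 1.10 and 0.599 (wild type) against 0.790, 1.10 and 0.850 (cKO). The lowest of these ratios was in wild type replicate 2, and the groups overlapped.

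Psme3, the nuclear PA28 gamma, lay at 45.8 and 37.5 CPM (wild type) against 43.5, 73.1 and 53.7 CPM (cKO), with overlapping groups (log2 fold change 0.45, standard error 0.57). Psme4, the PA200 activator, was the scarcest detected member, with 134 and 34 counts (wild type) against 0, 85 and 6 counts (cKO). Psmf1, the inhibitor PI31, lay at 76.4 and 77.7 CPM (wild type) against 30.7, 62.6 and 6.61 CPM (cKO). No cKO value reached the wild type range, and the cKO libraries were far apart among themselves. The fitted log2 difference was -1.21 (standard error 0.89, unadjusted p = 0.22), and -0.71 without cKO replicate 3.

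The comparison of the genotypes asks how these messages differ without Suz12. None of the 45 members tested was called (edgeR adjusted p of 0.968 or more), beside 0% called over all 9988 genes tested. Suz12 itself was tested and not called (log2 fold change -4.11, standard error 2.87, edgeR adjusted p = 0.999). The lack of a call in 3 against 2 libraries therefore does not show that a gene is unchanged. Only Psma1 had an unadjusted p under 0.05, 1 of 45, beside 4.15% of all genes. limma-voom called 0 members and 0% of all genes, with 2 of 45 members at an unadjusted p under 0.05 (Psma1 and Psmc3ip), beside 6.77% of all genes. DESeq2 called 0 members and 1.91% of all genes, with Psma1 at an adjusted p of 0.28. By sign, 29 members lay lower and 16 higher, beside 47.5% lower over all genes, and the median log2 fold change was -0.29 against 0.06 over all genes. Over the 2670 tested genes that averaged 50 CPM or more, 51.4% lay lower and the median was -0.02. Among these abundant genes the median was -0.14 for the 768 under 1100 bases and 0.11 for the 1340 over 1700 bases. For members of that abundance it was -0.29 for the 14 under 1100 bases and -0.15 for the 17 of 1100 to 1700 bases. The 8 members over 1700 bases had a median of -0.23, so long members lay lower where long genes in general lay higher. By class, 5 of 8 alpha genes, 6 of 7 beta genes, 2 of 3 immunoproteasome genes, 10 of 20 19S genes and 4 of 5 activator genes lay lower, with medians of -0.34, -0.18, -0.13, -0.06 and -0.46. Without wild type replicate 2 the alpha and beta medians were 0.09 and 0.08, beside a median of 0.37 over all 11690 genes tested in that fit. Without cKO replicate 3 the 19S median was 0.04, beside 0.05 over the 9437 genes tested there. The filter was run again for each such fit, so these all-gene medians are not over the same 9988 genes. Non-overlapping groups with cKO above were found for 4 (Psma1, Psmb4, Psmd1 and Psmd4), beside 8.87% of all genes, and with cKO below for 8 (Psma5, Psma7, Psmb1, Psmc1, Psmd6, Psmd11, Psme2 and Psmf1), beside 10.2% of all genes.

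**Figure D3:**
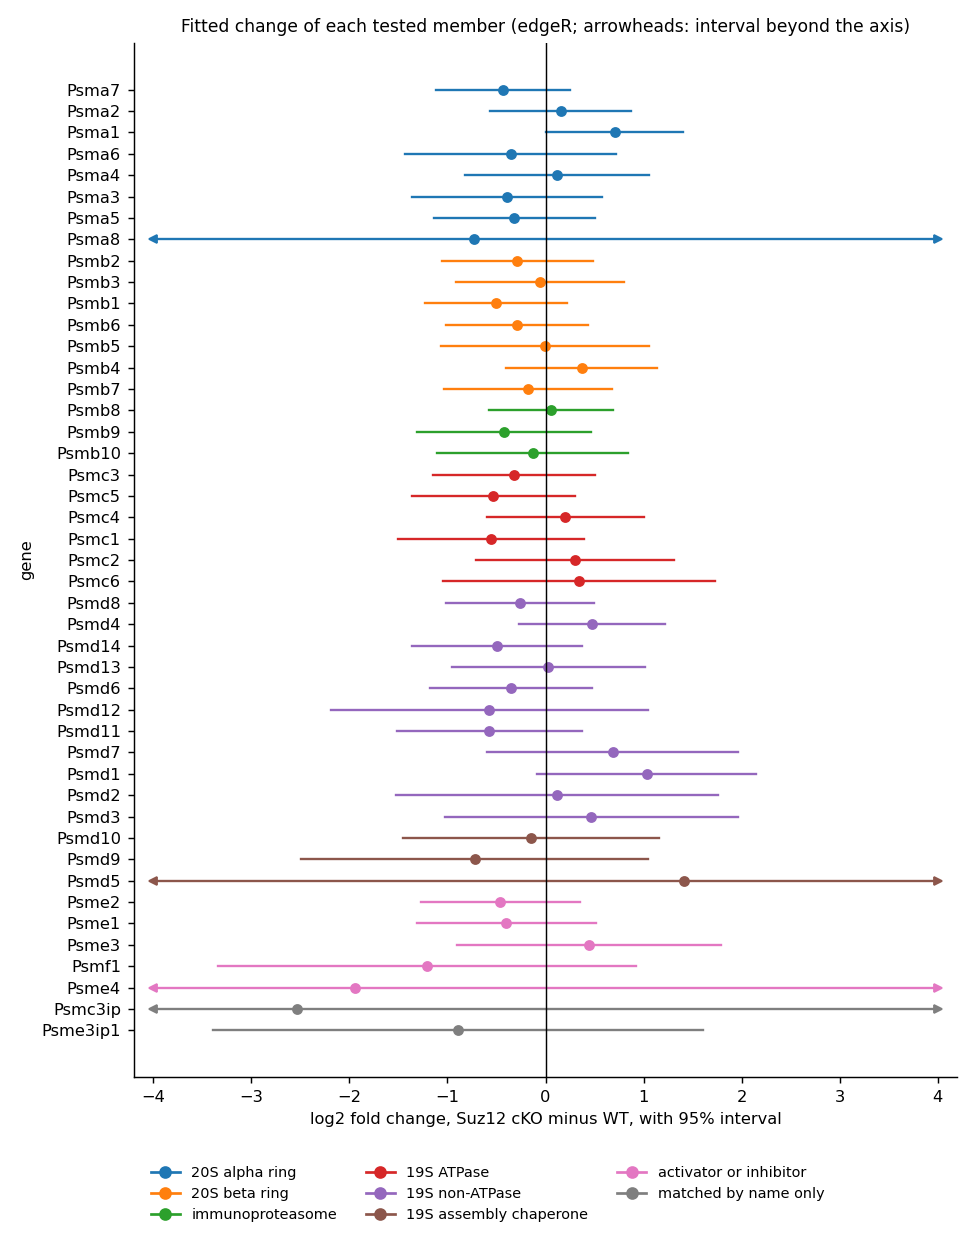
Fitted log2 fold change of each of the 45 tested members, cKO minus wild type, with its 95% interval from edgeR, coloured by class and ordered within a class by level. The interval of Psma1 alone lies above 0 (0.00 to 1.40), and those of Psma8, Psmd5, Psme4 and Psmc3ip run past the axis.

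As a share of all counts, the members together held 1.01% and 1.11% in wild type and 0.962%, 0.959% and 0.916% in cKO. Both wild type shares were above every cKO share. On the TMM-scaled values the sums were 9970 and 11140 CPM against 10470, 8737 and 9504 CPM, so that the groups overlapped and their separation rested on the scaling. The 20S genes together reached 5036 and 6473 CPM (wild type) against 6241, 4540 and 4999 CPM (cKO), and the 19S genes together 3154 and 2965 CPM against 2851, 2864 and 2883 CPM. The 3 immunoproteasome genes summed to 821 and 934 CPM against 845.5, 749 and 897 CPM. On this scale the 20S and immunoproteasome sums overlapped between genotypes and the 19S sums did not. As a share of counts the 19S genes overlapped too, with 0.319% and 0.295% against 0.262%, 0.314% and 0.278%.

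Most proteasome genes varied little between libraries of a group. The within-group SD of log2(CPM + 1) had a median of 0.41 over the 45 members, 1.05 over all tested genes and 0.53 over the 2670 tested genes that averaged 50 CPM or more. The standard error of the log2 fold change had a median of 0.40 for members and 1.87 for all genes, and 0.48 for the genes that averaged 50 CPM or more. The smallest SDs belonged to Psmd6 (0.13) and Psmb8 (0.14), and the largest to Psmd5 (3.47), Psmc3ip (2.09) and Psma8 (2.04). Under 3 counts in at least 1 library were found for 4 members (Psma8, Psmd5, Psme4 and Psmc3ip), or 8.89%, beside 42.7% of all tested genes. Among the genes that averaged 50 CPM or more the share was 0.599%. The 4 members lay under that level, with means of 14.9, 33.0, 2.52 and 16.6 CPM.

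**Figure D4:**
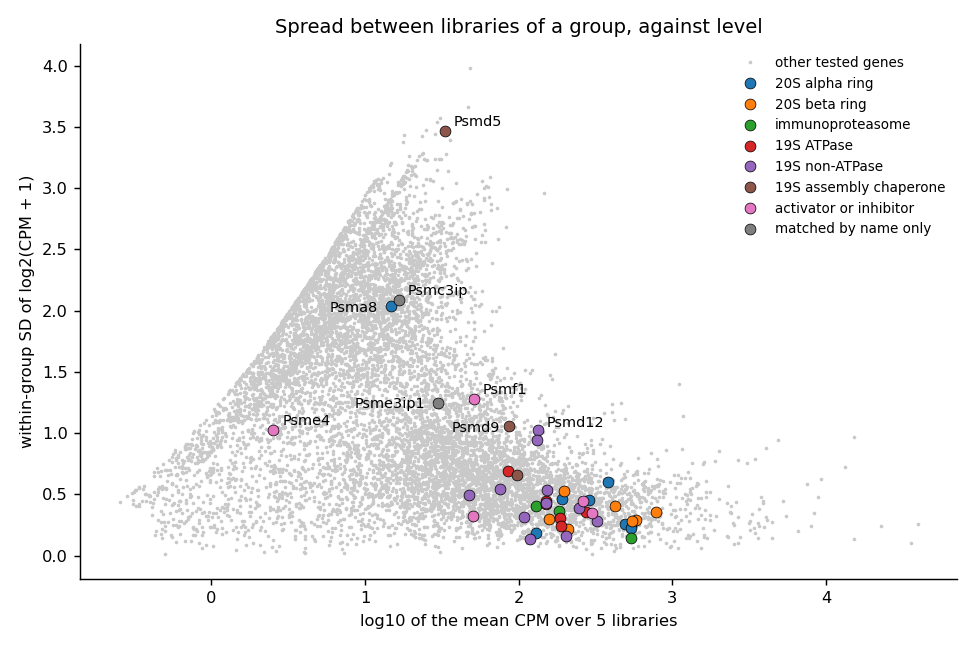
Within-group SD of log2(CPM + 1) against the log10 of the mean CPM, with 1 point per tested gene and the members in colour. Most members lie between 100 and 1000 CPM with SDs under 0.7, and the 8 above an SD of 1 (Psmd5, Psmc3ip, Psma8, Psmf1, Psme3ip1, Psmd9, Psmd12 and Psme4) are named.

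The libraries differed by gene length, and in cKO replicate 2 and wild type replicate 2 the members differed in the same direction. In cKO replicate 2, the 768 genes under 1100 bases with at least 50 CPM had a median log2 deviation from their 5-library mean of -0.55, and the 1340 genes over 1700 bases one of 0.24. Among the members the corresponding values in that library were -0.28 for 14 short genes, mostly of the 20S core, and 0.28 for 8 long genes, Psmd1, Psmd2 and Psme3 among them. Wild type replicate 2 had the opposite slope, 0.28 for short and -0.10 for long genes among all genes, and 0.30 and -0.21 among the members. Elsewhere the match was looser. In cKO replicate 3 short members lay at -0.06 and all short genes at 0.17. In wild type replicate 1 long members lay at 0.47 and all long genes at 0.09. In cKO replicate 1 short members lay at 0.18 and all short genes at 0.20. The part of these slopes in the changes above was not tested. Without cKO replicate 2, the median log2 fold change of the members was -0.21 and 28 lay lower. The median over all 9179 genes tested in that fit was -0.01. Without wild type replicate 2, the median of the members was -0.11 and 24 lay lower, beside 0.37 over the 11690 genes tested there. The filter passed different genes in each fit, so the all-gene medians are over unlike sets.

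**Figure D5:**
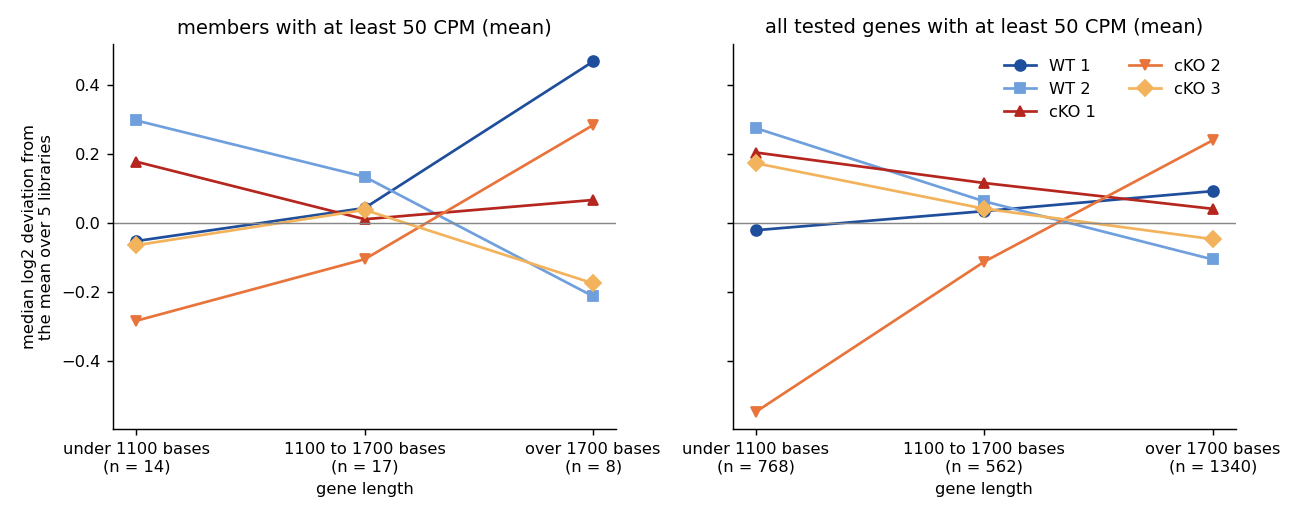
Median log2 deviation of log2(CPM + 1) from the mean over the 5 libraries, for members (left) and for all tested genes that averaged 50 CPM or more (right), in 3 bins of gene length. The line of cKO replicate 2 climbs from short to long genes in both panels (-0.28 to 0.28 and -0.55 to 0.24) and that of wild type replicate 2 falls. The member bins hold 14, 17 and 8 genes.

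Genes that act beside the proteasome showed no call either (0 members of each list at an adjusted p under 0.05, edgeR). Of 8 tested partners and further parts of the cap, 2 lay higher and 6 lower (median log2 fold change -0.44). Uchl5, a deubiquitinase of the cap, lay at 192 and 195 CPM (wild type) against 157, 163 and 68.9 CPM (cKO), and the ubiquitin ligase Ube3a at 37.6 and 51.5 CPM against 16.3, 27.8 and 22.4 CPM. Both were lower in every cKO library. Among 5 assembly factors of the core, 2 lay higher and 3 lower (median -0.04). Psmg4, a chaperone of the alpha ring, lay at 61.7 and 57.4 CPM (wild type) against 21.6, 25.6 and 28.0 CPM (cKO), with separate groups (log2 fold change -1.25, standard error 0.62). Psmg2, another assembly chaperone of the alpha ring, overlapped (0.59, standard error 1.14). Pomp, the maturation factor of the beta ring, lay between 671.5 and 879 CPM in all libraries.

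Of 8 genes around Nrf1, the factor that induces proteasome genes when the proteasome is inhibited, 2 lay higher and 6 lower (median -0.29). Nfe2l1, which encodes Nrf1, lay at 38.8 and 8.19 CPM (wild type) against 27.8, 27.2 and 12.96 CPM (cKO). The small Maf gene Maff lay at 35.8 and 37.4 CPM against 94.9, 53.5 and 82.6 CPM, higher in every cKO library (log2 fold change 1.07, standard error 0.53). Keap1, the adaptor that keeps Nrf2 low, had 20.1 and 14.5 CPM in wild type, 9.27 CPM in cKO replicate 2 and no count in the other cKO libraries. Of 5 tested ubiquitin and E1 genes 1 lay higher and 4 lower (median -0.11), among them Rps27a (-0.37, standard error 0.52) and Uba1 (-0.23, standard error 0.61). Of 8 shuttle and p97 genes 5 lay higher and 3 lower (median 0.22). In that list Ufd1 lay at 179 and 23.3 CPM against 45.5, 78.5 and 28.1 CPM, and Ubqln4 was without counts in both wild type libraries and cKO replicate 2, with 0.939 and 7.38 CPM in cKO replicates 1 and 3.

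The list of class I peptide supply was also without a call. Of 11 tested genes 7 lay higher and 4 lower (median 0.14), with Tap1 given above and B2m, the light chain of class I molecules, at 7967 and 10240 CPM (wild type) against 8534, 5577 and 9204 CPM (cKO). Interferon response genes, which include inducers of the immunoproteasome, had 7 higher and 8 lower of 15 tested (median -0.10). Ifit3 had 15.7 and 1.77 CPM in wild type and no count in cKO, and Parp14 was without counts in both wild type libraries and cKO replicate 3, with 1.69 and 6.05 CPM in cKO replicates 1 and 2. Irf1, an activator of Psmb8 and Psmb9, lay at 27.5 and 10.6 CPM against 22.7, 30.5 and 0 CPM, with overlapping groups.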

How the data were processed

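The authors deposited whole-gene read counts for 5 libraries, in 1 joint table and again in single files with identical counts. The submitters' processing notes name featureCounts and mm10. The libraries came from an ultra-low-input kit and polyadenylated RNA, per the labels' protocols. The sources used here do not give the aligner, the strand setting or the treatment of multi-mapping reads.

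Symbols were matched for 25293 of 27179 identifiers, all but 18 through RefSeq (GRCm38.p6). Counts were filtered with filterByExpr (minimum count 10), scaled with TMM and tested with edgeR 4.0.16 in R 4.3.3 (robust quasi-likelihood F test, Benjamini-Hochberg over 9988 genes, threshold 0.05). Standard errors are the log2 fold change over the root of F, with 95% intervals from the moderated degrees of freedom. Levels are TMM-scaled CPM, per kilobase of the deposited gene length where genes are compared, and ratios add 0.5 counts. Exon overlaps used GENCODE vM21, where 12 members overlapped a gene on the opposite strand and 2 one on their own. Other tools were DESeq2 1.42.0 and limma 3.58.1 (voom). Fits were tested on simulated counts.

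Named members were the catalytic and activator genes, the extremes of level in each class, the 5 with the smallest p in each direction, those with under 3 counts in a library or untested, and 2 per pathway list. Others named, such as Psma2, Psmd2, Pomp, Nfe2l1 and Irf1, were chosen after their values were seen. The members and lists were chosen with earlier results of these data known. Psme2b was not analysed here. The length bins were chosen after seeing the data.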

Additional observations from a re-analysis of the deposited data

How the results depend on the processing

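No member was called under any of the 14 other settings, which covered scaling, filter, tool, covariates, input files and leaving out each library. The number of genes called over the whole table was 191 with DESeq2 and 1 with the replicate number as a block (Il10, no member), against 0 in edgeR. Deviations from the group means were hardly correlated between same-numbered libraries (r = -0.0234 and -0.00516 across genes for numbers 1 and 2). The deviations of 2 wild type libraries mirror each other, so this check cannot show whether the numbers mark a batch. In the block, cKO replicate 3 has no wild type partner. The sample titles write LC for wild type replicate 1 and cKO replicates 1 and 2. For wild type replicate 2 and cKO replicate 3 they write Langerhans-cell. Whether this marks a batch cannot be told from the titles. With this style as a term in edgeR, 0 genes were called and the members' median log2 fold change was -0.27. With the replicate block the log2 fold change turned to 0.0846 for Psmb10, 0.0889 for Psmb5, -0.0143 for Psmb8 and 0.00924 for Psmd10, and Psmb5 was 0.000168 with RLE factors and 0.000169 with DESeq2, all near 0. Leaving out 1 library at a time moved the median log2 fold change over -0.363 to 0.0945 for the alpha ring, -0.42 to 0.0809 for the beta ring, -0.338 to -0.0124 for the immunoproteasome, -0.168 to 0.0448 for 19S genes, -0.78 to -0.325 for activators and -0.335 to -0.107 for all members. It moved the log2 ratio differences over -0.103 to 0.474 (Psmb8 to Psmb5), -0.557 to 0.0875 (Psmb9 to Psmb6) and -0.279 to 0.259 (Psmb10 to Psmb7), so none kept its sign. Ranges for single members were made for 31 of them, and the others, such as Psmd2, were not followed in this way. Among the 31, the sign changed for Psmb10 (-0.346 to 0.0957), Psmb5 (-0.42 to 0.281), Psmb7 (-0.393 to 0.0809) and Psmb8 (-0.0444 to 0.169). It also changed for Psmc6 (-0.15 to 0.748), Psmd10 (-0.631 to 0.592), Psmd8 (-0.475 to 0.000673) and Psme1 (-0.78 to 0.131). The same held for Psme3ip1 (-1.58 to 0.496). Psma1 stayed between 0.52 and 0.923, Psmd1 between 0.616 and 1.31 and Psmf1 between -2.05 and -0.705, none past the threshold. With 1 wild type library left, its spread is assumed to be that of the cKO libraries. The cause of these shifts was not tested beyond the smaller number of samples.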

Other observations

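The 2 genes matched by name only had mean levels of 17.1 (Psmc3ip) and 16.5 (Psme3ip1) CPM per kilobase, under the members' median of 130.4 and above that of all tested genes, 6.87. Psmc3ip, a partner of the meiotic recombinase machinery, had 963 and 258 counts (wild type) against 0, 483 and 0 counts (cKO), or 51.0 and 15.2 CPM against 17.1 CPM in cKO replicate 2 alone. Psme3ip1, which binds PA28 gamma, lay at 15.9 and 66.2 CPM (wild type) against 6.70, 31.1 and 28.7 CPM (cKO). Neither separated the genotypes. The ubiquitin gene Ubb lay between 3197 and 4593 CPM in all libraries. Sem1, the smallest part of the 19S cap, lay between 855 and 1594 CPM and had a mean level of 2535 CPM per kilobase, above that of every gene with a Psm symbol analysed here.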
